A study of Rattus norvegicus with 12 samples.

Results

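*Cck*, *Sst*, *Npy*, *Vip*, *Tac1* and *Penk* encode the precursors of the neuropeptides cholecystokinin, somatostatin, neuropeptide Y, vasoactive intestinal peptide, substance P and the enkephalins. *Gad1* and *Gad2* encode the glutamate decarboxylases that make GABA, and *Slc32a1* encodes the transporter that loads GABA into synaptic vesicles. These 9 genes were taken by their symbols from 10411 genes named on the GeneChip. Every probe set annotated to them was kept, which gave 10 of 15923 probe sets, 2 of them for *Gad1*. The study asked which genes set neurons that are vulnerable to oxidative stress (VUL: CA1 and CbG) apart from resistant neurons (RES: CA3 and CTX). Neurons were lifted by laser capture microdissection (LCM), in which a laser melts a film onto chosen cells of a stained section. They came from Fisher 344/BN F1 rats that were 6 months old and had received no treatment. The captures were of the CA1 and CA3 pyramidal cell layers, the granule cells of the cerebellum (CbG) and layers IV to VI of the cerebral cortex (CTX). Each region had 3 arrays, labelled biological rep 1 to 3, 12 arrays in all. The replicate number was taken as the rat, which the labels do not state. The stain does not tell principal cells from interneurons or glia, and in such captures fewer cells of a type cannot be told apart from less RNA in each cell.

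Interneurons of the hippocampus and cortex release GABA, and their classes are told apart by the peptides they carry, among them *Sst*, *Npy*, *Vip* and *Cck*. Excitatory pyramidal cells can make peptides too, and *Cck* is a known example in the cortex and in CA1. In the cerebellum, granule cells are glutamatergic, while the Golgi cells among them and the Purkinje cells beside them use GABA, and *Penk* is known from Golgi cells. *Gad1*, *Gad2* and *Slc32a1* are therefore read as general signs of GABA neurons, and the peptides as signs of particular classes. *Gad2* and the *Gad1* probe set 1370760_a_at stayed below the median signal of every array, so the reading rests on the other *Gad1* probe set and on *Slc32a1*.

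The third CA3 array and the third CbG array, as labelled, went against their labels. *Gabra6* encodes the GABA receptor subunit by which cerebellar granule cells are known, and its signal was 2568 in the array labelled CA3 rep 3, against 5.6 and 38.6 in the other CA3 arrays. It was 15.4 in the array labelled CbG rep 3, against 3379 and 1283 in the other CbG arrays. *Nrgn*, whose product binds calmodulin in the forebrain, had a signal of 49.2 in CA3 rep 3 and of 6451 in CbG rep 3. For *Grik4*, which encodes a glutamate receptor subunit that is typical of CA3, the signals were 68 in CA3 rep 3 and 621 in CbG rep 3. Results are therefore given for the 12 arrays as labelled, for 10 arrays without these, and for 12 arrays with these labels exchanged. The array labelled CbG rep 3 also carried genes typical of CA1, with *Wfs1* at 3769 against 1045 and 481 in CA3 reps 1 and 2. Its signals, and the CA3 values with the labels exchanged, are therefore not read as those of CA3 alone. All values are linear MAS5 signals, and the median signal of an array lay between 144.5 and 198.75 over the probe sets that are not controls. No detection calls were used here, so a signal below the array's median is reported as low and not as absent.

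Several peptide genes, *Sst* among them, are known for cAMP response elements in their promoters, and the stretches that hold this element or its core are shown to set the members side by side. RefSeq promoter windows of the GRCr8 build, from 250 bases before to 50 bases after the annotated start, were at hand for 7 of the 9 genes, and *Cck* and *Penk* had no entry. The element TGACGTCA, searched on both strands, was in the window of 1 member, *Sst*. The shorter TGACG within it, also on both strands, was in 4, *Sst*, *Vip*, *Tac1* and *Slc32a1*, and was not among the letters of the *Npy*, *Gad1* and *Gad2* windows. Of 33469 promoter windows of the same length, 1.83% held TGACGTCA and 21.2% held TGACG. The stretches of 30 bases around the site nearest to the start follow, with the site in capitals, at chr11:90461537-90461566 for *Sst*, chr1:44470370-44470399 for *Vip*, chr4:36645364-36645393 for *Tac1* and chr3:167687258-167687287 for *Slc32a1*, all on the plus strand.
Sst: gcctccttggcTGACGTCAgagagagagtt
Vip: gggatcaccactgTGACGtctttcgaggag
Tac1: ttccctaaaattgCGTCAtttcgaacccaa
Slc32a1: gcccttgctgcctTGACGcgcgcccgccgc
Among the 4 genes with the shorter site, *Sst* and *Vip* had unlike patterns across regions, as the values below show. *Sst* was high in CTX alone, and *Vip* was high in CA1 and CTX.

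*Cck* gave the strongest peptide signal. It was 6460.1, 7039 and 8249.7 in CA1, 2508, 1603 and 58.8 in CA3, 83.7, 59.2 and 2523 in CbG, and 7171, 5350.2 and 4684 in CTX. In CA1 the signal stood at the 98.8th percentile of its array or above, while in CbG reps 1 and 2 it was below the array's median. The array labelled CbG rep 3 lay with the CA3 arrays, and the array labelled CA3 rep 3 lay with the CbG arrays. Over 10 arrays, *Cck* averaged 7249 ± 913 in CA1 (SD, n = 3), 2056 ± 639.8 in CA3 (n = 2), 71.5 ± 17.3 in CbG (n = 2) and 5735 ± 1288 in CTX (n = 3).

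*Vip*, the precursor of a peptide carried by interneurons that contact other interneurons, followed an order of its own. Its signal was 1842, 977 and 1378 in CA1, 125, 113 and 51 in CA3, 43.7, 8.6 and 259.9 in CbG, and 1404, 2256 and 1929.6 in CTX. CA1 and CTX overlapped, and both lay above all CA3 and CbG arrays, whichever way the doubtful arrays were labelled. In CA3 the signal was below the array's median in each of the 3 arrays labelled so, and the array labelled CbG rep 3, at 259.9, lay above all 3. That array carried CA1 markers too, so its *Vip* signal is not read as that of CA3 alone. *Vip* averaged 1399 ± 433 in CA1 (SD, n = 3), 119 ± 8.7 in CA3 (n = 2), 26.2 ± 24.8 in CbG (n = 2) and 1863 ± 430.1 in CTX (n = 3) over the 10 arrays.

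*Npy*, whose product is an inhibitory peptide of several interneuron classes, varied most within CA3. Its signal was 1741, 1252 and 2331 in CA1, 285, 1743 and 145 in CA3, 177, 229.9 and 1231 in CbG, and 2022, 2487 and 2575 in CTX. CA3 rep 2 lay within the range of CA1, whereas CA3 rep 1 lay near the CbG arrays, and the array labelled CbG rep 3 was again high. The mean of the 2 remaining CA3 arrays, 1014 ± 1031 (SD), thus describes neither of them.

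*Sst*, which marks interneurons that contact pyramidal cell dendrites, was high in CTX alone. Its signal was 273, 109 and 301 in CA1, 187, 444 and 294 in CA3, 271, 379 and 358 in CbG, and 1594, 1530.4 and 1402 in CTX. The lowest CTX array lay above each of the 9 other arrays. Among CA1, CA3 and CbG the values overlapped, and the doubtful arrays did not stand out. The sizes of its differences thus depended little on their labels, but whether these differences passed the tests below did depend on them.

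*Penk* divided the regions in another way. Its signal was 269, 519 and 217 in CA1, 284, 303 and 865 in CA3, 1061, 865 and 187 in CbG, and 878, 1197 and 853 in CTX. Apart from the doubtful arrays, CbG and CTX overlapped and lay above CA1 and CA3, which overlapped with each other. The array labelled CA3 rep 3 had the level of CbG, and the array labelled CbG rep 3 had that of CA3. *Penk* was thus the peptide gene of this set with a high signal in the CbG arrays, at 963 ± 138 (SD, n = 2), beside 976 ± 192 in CTX (n = 3).

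*Tac1*, the precursor of substance P, stayed below the array's median in all 12 arrays. Its signal was 65.4, 52.6 and 22.7 in CA1, 17.7, 16.2 and 21.6 in CA3, 15.9, 5.7 and 68.1 in CbG, and 76.4, 14.6 and 16.8 in CTX. It did not pass the filter on low signals and was not tested, so no order of the regions is read from these values.

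**Figure D1:**
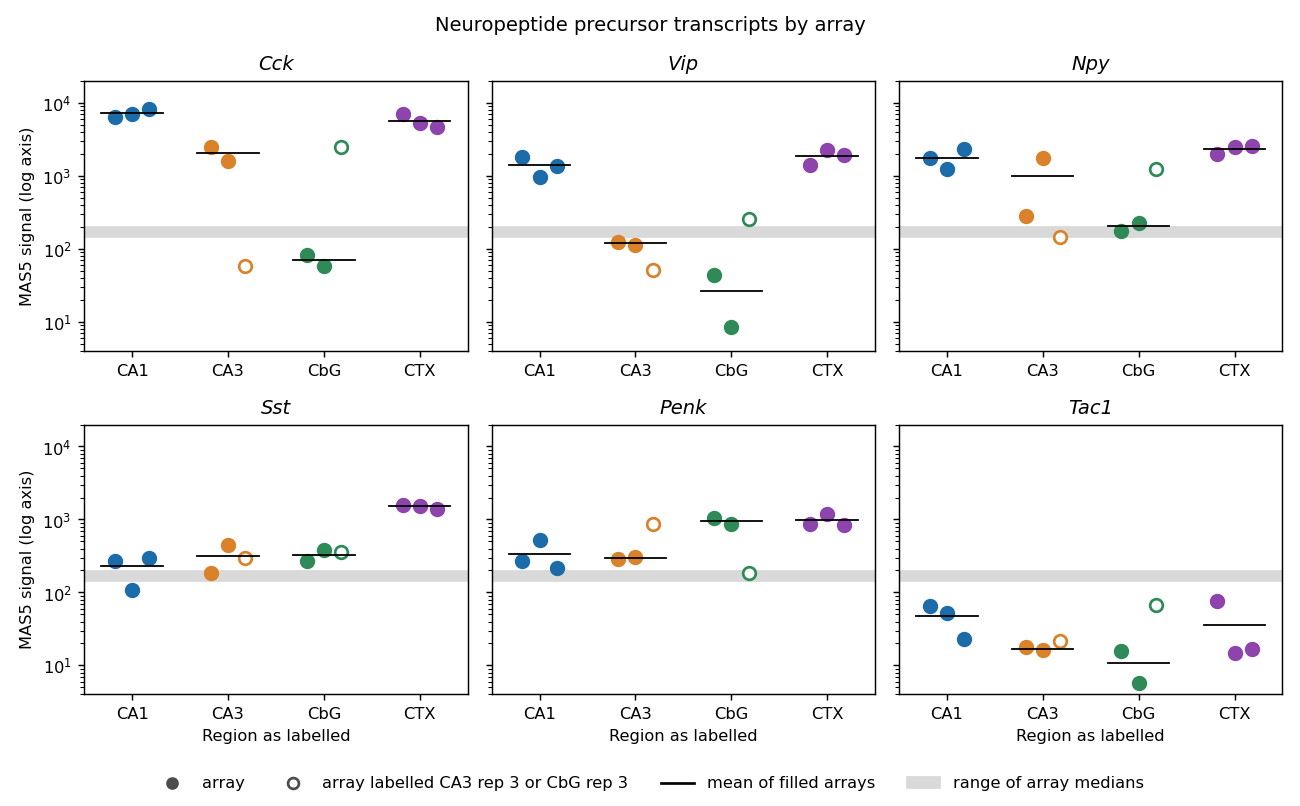
MAS5 signal (log axis) of the 6 neuropeptide precursors in each array, by region as labelled; open points are CA3 rep 3 and CbG rep 3 as labelled, and lines average the filled points. *Cck*, *Vip* and *Npy* are low in the filled CbG points, *Sst* is high in CTX alone, and *Penk* is high in CbG and CTX.

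Among the GABA genes, *Slc32a1* and 1 of the *Gad1* probe sets were lowest in CA3 and highest in CTX by their means over the 10 arrays. Probe set 1368344_at of *Gad1* gave 4537, 4980.4 and 4739.5 in CA1, 2964, 2563 and 2409 in CA3, 4413, 7325 and 3201 in CbG, and 7049, 9345 and 5608 in CTX. It was at the 94th percentile of the array or above in every capture, and CA3 was the lowest region with no overlap with CA1 or CTX. The other *Gad1* probe set, 1370760_a_at, gave between 2.8 and 41.8 in the 12 arrays and was always below the array's median, so the probe sets of this gene disagree and its regional values rest on 1 of them.

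*Slc32a1*, measured by 1387380_at, gave 216, 214 and 218 in CA1, 148, 164 and 144 in CA3, 234, 263 and 139 in CbG, and 338, 383 and 325 in CTX. The order of the filled arrays was that of *Gad1*, with CTX highest and CA3 lowest, although the signals lay only between the 47.1st and the 64.4th percentile of the arrays. *Gad2* gave 89.2, 48.1 and 66.1 in CA1, 57.8, 4.8 and 9 in CA3, 39.7, 50.6 and 72.7 in CbG, and 91.1, 85.3 and 64.7 in CTX. It was below the median of each array and was not tested.

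**Figure D2:**
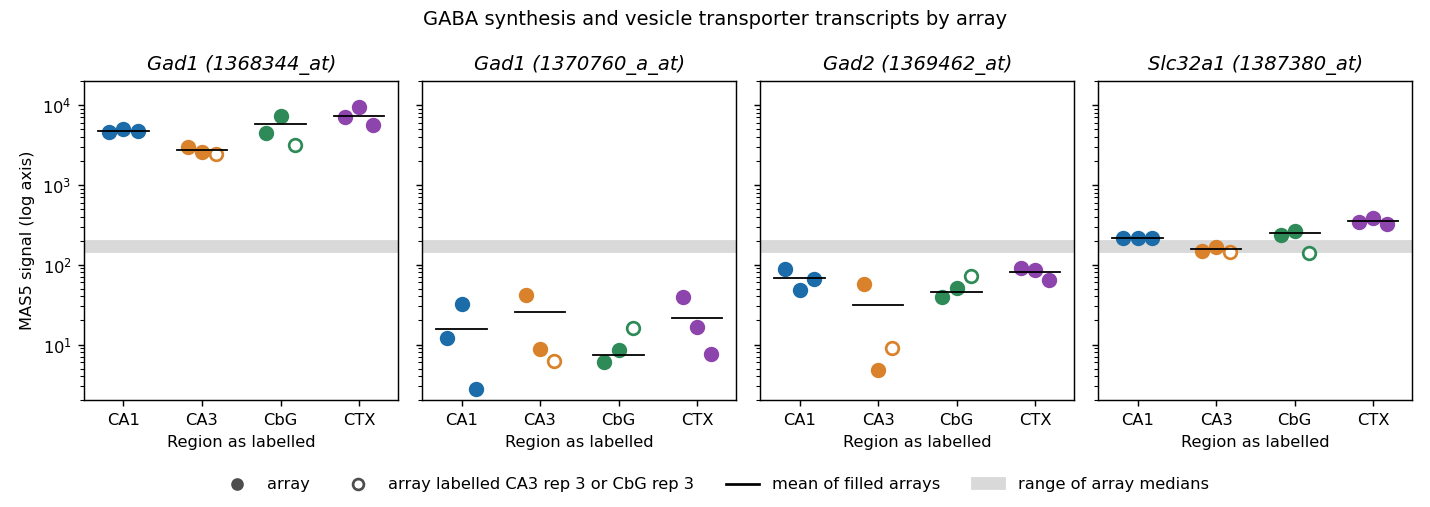
MAS5 signal (log axis) of the 4 probe sets of *Gad1*, *Gad2* and *Slc32a1* in each array, by region as labelled; open points are CA3 rep 3 and CbG rep 3 as labelled, lines average the filled points, and the grey band spans the array medians. Only 1368344_at of *Gad1* and the *Slc32a1* probe set reach the medians, and in both CA3 is low and CTX high.

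Differences between regions were tested with limma on log2 signals centred on the array's median, with the rat as a block. A probe set was tested if its signal exceeded the array's median in at least 3 of the 12 arrays, which 9000 probe sets and 7 of the 10 did, and it was called at an adjusted p under 0.05 and a change of at least 1.5-fold. *Vip* exceeded the median only in the CA1 and CTX arrays and in the array labelled CbG rep 3. *Vip* thus passed the filter only through arrays in which it was high, a limit that holds for all its p-values below. With the arrays as labelled, *Sst* was the only member called, with a log2 difference of -2.54 in CA1 minus CTX (SE 0.47, adjusted p = 0.0247), in a contrast where 5.56% of all probe sets were called. None of the 7 was called in the other 6 contrasts, where the share of all probe sets called was 0.0111% in VUL minus RES, 1.03% in CA1 minus CA3, 0.7% in CbG minus CTX, 1.93% in CA3 minus CTX, 0.811% in CA1 minus CbG and 0% in CA3 minus CbG. At an unadjusted p under 0.05, limma gave 1, 2, 5, 4, 3 and 1 of the 7 in these contrasts.

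Without the doubtful arrays, *Cck*, *Vip* and *Npy* were called lower in CbG than in each other region, and *Sst* was called lower than in CTX alone. In CbG minus CTX, 4 of the 7 were lower, where 10.7% of all probe sets were called lower. *Cck* differed by -6.20 (SE 0.27, adjusted p = 6.92e-06) and *Vip* by -6.39 (SE 0.53, adjusted p = 9.86e-05). *Npy* differed by -3.26 (SE 0.59, adjusted p = 0.00531) and *Sst* by -1.98 (SE 0.54, adjusted p = 0.0297). With the labels exchanged the same contrast gave -6.23, -5.91, -3.52 and -2.09 for these genes, all called, with 12.7% of all probe sets called lower. *Penk* (-0.04, 95% interval -0.65 to 0.56), *Gad1* (-0.28, interval -0.94 to 0.37) and *Slc32a1* (-0.37, interval -0.85 to 0.11) were not called, and each of the 3 intervals leaves room for a difference of over 1.5-fold. The *Vip* signals of 43.7 and 8.6 in CbG lie where an array resolves little, and with signals under 50 set to 50 the difference was -5.03 instead of -6.39. The call of *Sst* was lost without either CbG array, CTX rep 1 or CTX rep 2, with an adjusted p of up to 0.132.

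CA1 and CA3 hold the same kind of principal cell, and they differed in *Cck* and *Vip*. Of the 7, these 2 were higher in CA1 than in CA3 over 10 arrays, where 4.14% of all probe sets were called higher. *Cck* was higher by 1.82 (SE 0.27, adjusted p = 0.00541) and *Vip* by 3.43 (SE 0.53, adjusted p = 0.00629). With the labels exchanged the differences were 1.73 and 3.13, both called, at a background of 6.39%. Over 10 arrays the call of *Cck* was lost without CA3 rep 2 (adjusted p = 0.0729), and that of *Vip* was kept without any 1 array. *Vip* passed the filter only through arrays in which it was high, since its signal exceeded the median in 7 of the 12 arrays and in none of the 3 labelled CA3. With no filter on low signals limma called 0 of the 10 in CA1 minus CA3 over 10 arrays, and 4 had an unadjusted p under 0.05. *Gad1* (0.82, interval 0.17 to 1.48, adjusted p = 0.123) and *Slc32a1* (0.44, interval -0.04 to 0.92, adjusted p = 0.248) were not called, nor was *Npy* (1.1, interval -0.24 to 2.43, adjusted p = 0.3).

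CA3 was below CTX in 6 of the 7. In CA3 minus CTX over 10 arrays, 7.5% of all probe sets were called lower, and the members called were *Vip* at -3.55 (SE 0.53, adjusted p = 0.0032), *Sst* at -1.91 (SE 0.54, adjusted p = 0.031), *Penk* at -1.52 (SE 0.27, adjusted p = 0.00606), *Cck* at -1.14 (SE 0.27, adjusted p = 0.0178), *Gad1* at -1.1 (SE 0.29, adjusted p = 0.0251) and *Slc32a1* at -0.81 (SE 0.21, adjusted p = 0.0245). The same 6 were called with the labels exchanged, at a background of 9.46%, and *Npy* was called in neither fit. This count was 2 without CTX rep 1 or CTX rep 2, and 3 without either CA3 array. The call of *Vip* was kept without any 1 array, that of *Penk* was lost without CA3 rep 2, and those of *Cck*, *Sst*, *Gad1* and *Slc32a1* were each lost without 3 or 4 of the arrays of these regions in turn.

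CA1 and CTX were not called apart in *Vip* (-0.11, interval -1.14 to 0.91) or *Npy* (-0.13, interval -1.26 to 1.01), and the intervals leave room for differences of over 1.5-fold in either direction. Lower in CA1 over 10 arrays were *Sst*, by -2.54 (SE 0.46, adjusted p = 0.00424), and *Penk*, by -1.31 (SE 0.23, adjusted p = 0.00366), 2 of the 7 where 9.06% of all probe sets were called lower. Both were called with the labels exchanged too, with 9.04% of all called lower. *Cck* was 0.67 higher in CA1, with an adjusted p of 0.0528 over 10 arrays and of 0.0353 with the labels exchanged, where 23.1% of all probe sets were called higher.

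Against CbG, the hippocampal regions were higher in 3 peptides and lower in 1. In CA1 minus CbG over 10 arrays, *Cck* (6.88, SE 0.27, adjusted p = 1.68e-06), *Vip* (6.28, SE 0.53, adjusted p = 5.15e-05) and *Npy* (3.13, SE 0.59, adjusted p = 0.00341) were higher, with 22.8% of all probe sets called higher. The value of *Vip* was 4.91 with signals under 50 set to 50, and between 5.23 and 7.33 without each array in turn. *Penk* was lower by -1.27 (SE 0.27, adjusted p = 0.00622), with 14.1% called lower. In CA3 minus CbG the same genes were called, *Cck* at 5.06, *Vip* at 2.84, *Npy* at 2.03 and *Penk* at -1.48, with 25.5% of all probe sets called higher and 14.9% lower. The call of *Npy* in that contrast was lost without CA3 rep 2 and without either CbG array, with an adjusted p of up to 0.238. With the labels exchanged the same 4 were called in both contrasts, at 23.3% and 25.9% of all probe sets called higher and 17.2% and 19.7% lower. *Gad1* and *Slc32a1* were called in neither contrast in these fits.

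VUL minus RES averages across these unlike pairs. Over 10 arrays 3 of the 7 were lower in VUL, *Cck* by -2.19 (SE 0.18, adjusted p = 0.000191), *Vip* by -1.48 (SE 0.36, adjusted p = 0.0211) and *Sst* by -1.31 (SE 0.36, adjusted p = 0.0351), where 8.82% of all probe sets were called lower. With the labels exchanged *Npy* was called as well, at -1.25 (adjusted p = 0.0201), with 8.59% of all called lower. *Cck* and *Vip* ran in opposite directions within the pairs, higher in CA1 than in CA3 and lower in CbG than in CTX. The count of 3 was 1 without CA1 rep 3, CA3 rep 2, CbG rep 2 or CTX rep 3, which left *Cck*. The methods' t-test on the 4 complete pairs of these arrays called none of the 7. Its unadjusted p was 0.387 for *Cck*, 0.642 for *Vip* and 0.118 for *Sst*.

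**Figure D3:**
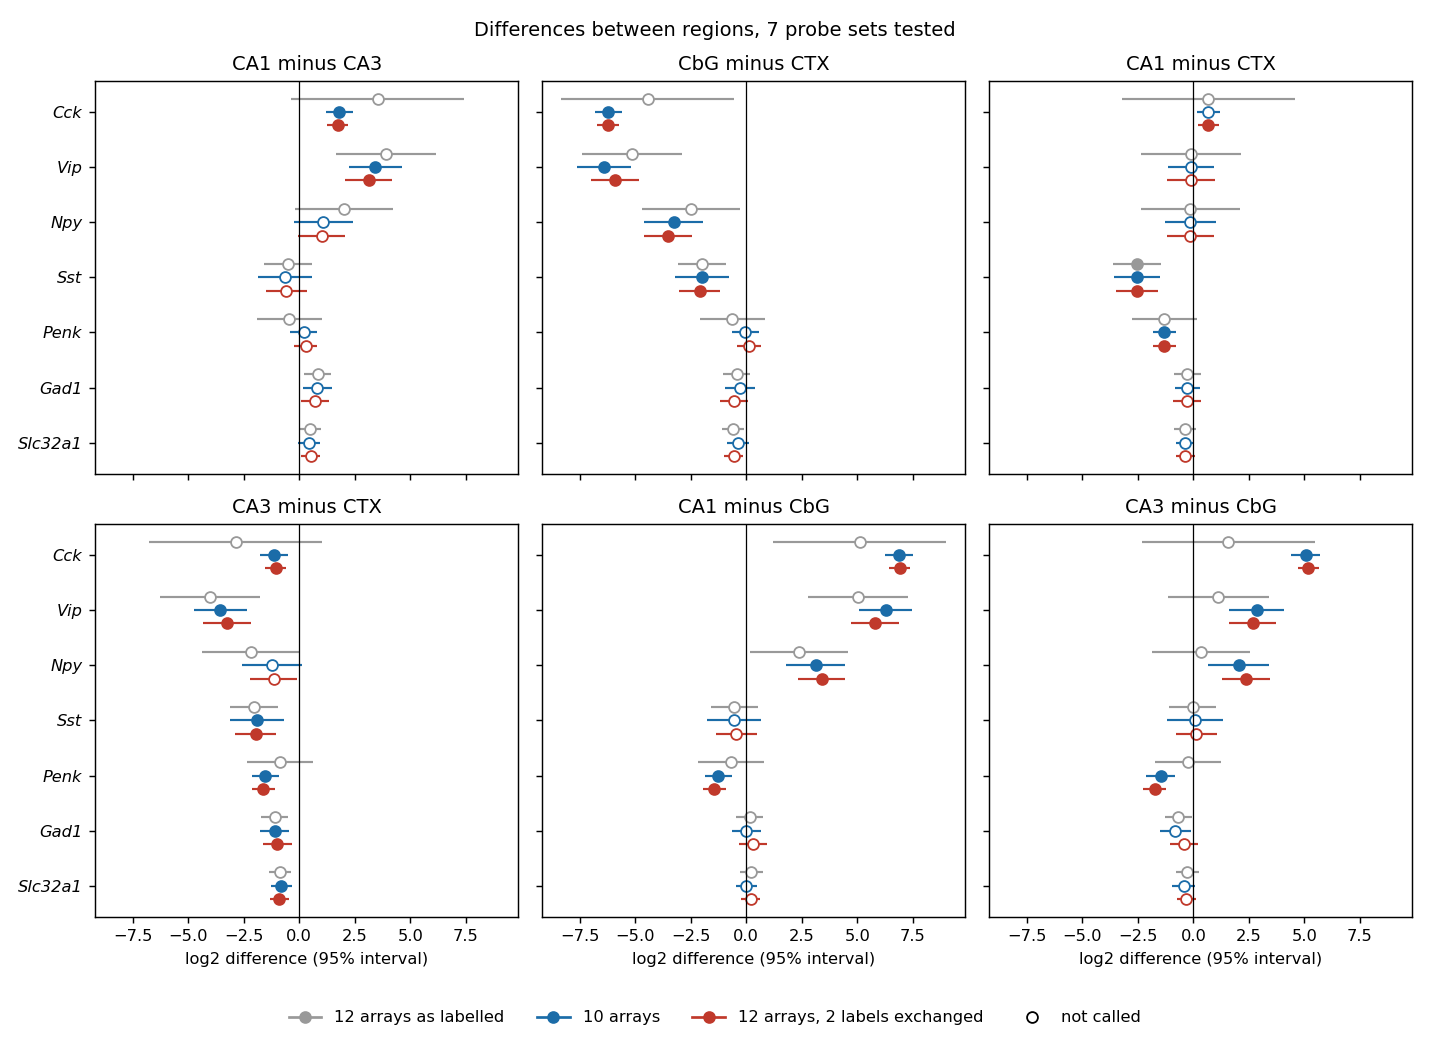
Log2 difference (first region minus second) of the 7 probe sets tested in 6 contrasts, with 95% intervals, for the 12 arrays as labelled (grey), 10 arrays (blue) and 12 arrays with those 2 labels exchanged (red); filled points were called. The intervals of *Cck* shrink in all 6 contrasts, CA1 minus CTX among them, once the doubtful arrays are left out or exchanged. *Sst* and the GABA genes move little.

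The order of the regions over the 10 arrays, with neighbours that were not called apart, was as follows. For *Cck* it was CA1, CTX, CA3 and CbG, and CA1 and CTX were not called apart. For *Vip* and *Npy* it was CTX, CA1, CA3 and CbG. CTX and CA1 were not called apart for either gene, nor were CA1 and CA3 for *Npy*. For *Sst* CTX came first, and the 3 regions below it were not called apart. For *Penk* CbG and CTX came first with no call between them, and CA1 and CA3 followed with none between them. For *Gad1* and *Slc32a1* CTX came first and CA3 last on the log2 scale. CbG lay above CA1 between them, and this order was reversed with the labels exchanged. Of all pairs only CA3 and CTX were called apart over the 10 arrays.

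Markers of other cells moved with several of these values. In the 10 arrays, the Purkinje cell genes *Calb1*, *Car8* and *Pcp2* were high in CbG. *Car8*, a carbonic anhydrase-related protein, had signals of 3849.7 and 9877 in CbG reps 1 and 2, against between 21.9 and 277 in the 10 other arrays. *Pcp2*, a G protein regulator, had 1883 and 3602 there, and *Calb1*, a calcium-binding protein also found in CA1, had 4181 and 12798. *Gad1* had 4413 and 7325 in the same arrays and thus followed these genes in order. The array labelled CA3 rep 3, which carried *Gabra6* at 2568, had *Car8* at 115, *Pcp2* at 295, *Calb1* at 72 and *Gad1* at 2409. The summed signal of the 8 Purkinje, Golgi and molecular layer genes listed, 7 of them on the GeneChip, was 15946 and 37414 in CbG reps 1 and 2 and 2701 in the array labelled CA3 rep 3. The Golgi cell genes of that list, *Slc6a5* and *Grm2*, were below the array's median in CbG reps 1 and 2. *Slc6a5* had 13.3 and 8.4 there, and *Grm2* had 143.6 and 149.9, within its range of 113.5 to 173.5 in CTX. The part of Purkinje cell RNA in the *Gad1*, *Slc32a1* and *Penk* signals of CbG was not tested. *Penk* was at 865 in the array labelled CA3 rep 3, close to its 1061 and 865 in CbG.

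**Figure D4:**
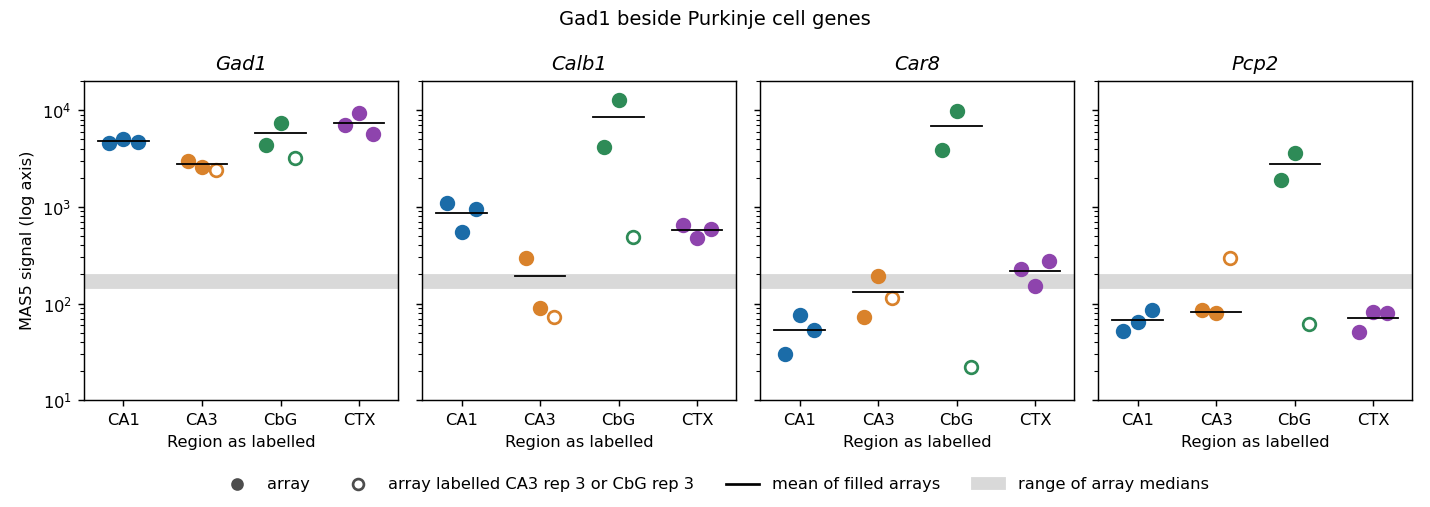
MAS5 signal (log axis) of *Gad1* (1368344_at) and of the Purkinje cell genes *Calb1*, *Car8* and *Pcp2* in each array, by region as labelled; open points are CA3 rep 3 and CbG rep 3 as labelled, lines average the filled points, and the grey band spans the array medians. The Purkinje cell genes are high in CbG reps 1 and 2, and in the array labelled CA3 rep 3 *Car8* and *Calb1* are below the array medians while *Pcp2*, at 295, is above them and below its CbG signals of 1883 and 3602.

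The levels of markers of glia, vessels and principal cells also varied between regions. The summed signal of the 5 of 6 listed oligodendrocyte genes on the GeneChip was 3850 to 5121 in CA1, 8155 to 10521 in CA3, 9641 to 12460 in CbG and 22140 to 35487 in CTX over the 10 arrays, so CTX, which was highest in *Sst*, *Gad1* and *Slc32a1*, was also highest in these. The 5 astrocyte genes summed to 5019 to 7147 in CA1, 3459 to 6511 in CA3, 11681 to 15396 in CbG and 5926 to 12634 in CTX. The 3 endothelial genes summed to 231 to 506 in CA1, 328 to 401 in CA3, 393 to 638 in CbG and 867 to 1490 in CTX. The 6 of 8 listed genes of glutamatergic principal cells that were on the GeneChip summed to 5517 to 7386 in CA1, 7503 to 7780 in CA3, 8251 to 16651 in CbG and 3854 to 4708 in CTX. Within that sum *Neurod1* gave 6868 and 15335 in CbG and 52.2 to 73.7 in CTX, whereas *Camk2a* gave 61.6 and 100.1 in CbG and 1513 to 2562 in CTX. The part of these other cells in the regional values was not tested. RNA quality, read as the 3'/5' log2 ratio of the actin control probe sets, was between 4.62 and 5.35 in CA1, 3.85 and 4.45 in CA3, 3.88 and 6.52 in CbG and 4.13 and 5.13 in CTX as labelled. For GAPDH this ratio was between 1.55 and 2.21 in CA1, 1.31 and 2.36 in CA3, 1.83 and 2.31 in CbG and 2.06 and 2.76 in CTX. CTX thus held the highest GAPDH ratio, with overlap between the regions. The part of RNA quality in the regional values was not tested.

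Of 18 other interneuron markers listed, 12 were on the GeneChip and 8 were tested, and in CbG minus CTX over 10 arrays 4 were higher and 2 lower, where 11.8% of all probe sets were called higher and 10.7% lower, with a median of 1.44 beside 0.12 over all probe sets tested. The higher ones included *Calb2* (4.48, adjusted p = 2.08e-05), a calcium-binding protein, and *Reln* (3.48, adjusted p = 0.00141), an extracellular matrix protein, both of which cerebellar granule cells also make. The lower ones were *Kcnc2*, a potassium channel of fast-spiking cells (-3.17, adjusted p = 4.57e-05), and *Crh*, corticotropin-releasing hormone. *Crh* exceeded the array's median only in CTX reps 1 and 2 and CA3 rep 1, so it passed the filter only through arrays in which it was high. Its difference, -3.88, or -2.07 with signals under 50 set to 50, is therefore given without a p-value. *Crh* and *Tac3* are also counted among the peptide precursors below. In CA1 minus CA3 limma called none of the 8, 4 of which had an unadjusted p under 0.05, with a median of 0.13 beside -0.03 over all. There, 4.14% of all probe sets were called higher and 3.82% lower. In CA3 minus CTX 2 were lower, where 7.5% of all probe sets were called lower. These were *Kcnc2* (-1.55, adjusted p = 0.0033) and *Pvalb*, the calcium-binding protein of basket cells (-1.43, adjusted p = 0.024). *Pvalb* is also a Purkinje cell gene, and its signal was 884 and 2047 in CbG reps 1 and 2, against 5.3 in the array labelled CA3 rep 3.

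Of 18 other peptide precursors listed, 15 were on the GeneChip and 4 were tested. *Grp*, gastrin-releasing peptide, had signals of 3.3 to 8.5 in CA1, against 528 and 384 in CA3 reps 1 and 2, and was called lower in CA1, by -3.28 with signals under 50 set to 50 (adjusted p = 5.78e-05) and by -6.50 without that floor (adjusted p = 0.000242), in a contrast where 3.82% of all probe sets were called lower. Its signal was 849, 404 and 745 in CTX, and 8.9 in the array labelled CA3 rep 3 and 376 in the array labelled CbG rep 3. *Adcyap1*, the precursor of a peptide related to *Vip*, was higher in CA1 than in CA3 by 2.92 (adjusted p = 0.013), with 615, 782 and 555 in CA1 and 74.4 and 108 in CA3. *Tac3*, the precursor of neurokinin B, had 174, 209 and 224 in CA1 and at most 87 in CTX. Its signal exceeded the array's median in the CA1 arrays alone, so it passed the filter only through the region where it was high. Its difference between CA1 and CTX, 2.06 with that floor and 3.96 without it, is therefore given without a p-value. In CbG minus CTX, limma called 3 of the 4 lower, where 10.7% of all probe sets were called lower, with a median of -3.05 beside 0.12 over all. None of the 4 exceeded the array's median in CbG rep 1, and only *Adcyap1*, at 272, did so in CbG rep 2. They passed the filter mainly through other arrays in which they were high, so this count and median are not read as a result about CbG. For *Grp* those arrays were of CA3 and CTX and the array labelled CbG rep 3, a limit that holds for its p-values above too.

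Of 18 peptide receptors listed, 16 were on the GeneChip and 8 were tested. In CbG minus CTX over 10 arrays 5 were lower and 1 higher, where 10.7% of all probe sets were called lower and 11.8% higher, with a median of -2.10 beside 0.12 over all. Receptors of the members' own peptides were among them. The somatostatin receptor *Sstr1* was lower, by -4.27 with signals under 50 set to 50 (adjusted p = 6.37e-06) and by -5.84 without that floor (adjusted p = 0.000662), with signals of 77 and 5.4 in CbG and 1679, 1307 and 878 in CTX. The cholecystokinin receptor *Cckbr* was lower (-2.73, adjusted p = 0.000638), and so was the neuropeptide Y receptor *Npy5r* (-2.45, adjusted p = 0.000367), while *Sstr2*, also a somatostatin receptor, was at -2.30 (adjusted p = 0.000992). *Sstr1*, *Cckbr*, *Npy5r* and *Sstr2* were each below the array's median in CbG reps 1 and 2. They passed the filter only through other arrays in which they were high, a limit that holds for their p-values and for the count and median above. *Npy5r* was below the array's median in CTX too, at 175, 184 and 143. *Vipr1* and *Vipr2*, the receptors of the *Vip* product, did not pass the filter. In CA1 minus CA3, *Sstr2* was higher (1.26, adjusted p = 0.0367) and *Sstr3* lower (-1.15, adjusted p = 0.036).

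The granins and enzymes that package and cut peptide precursors were 11 listed genes, of which 10 were on the GeneChip and tested. In CbG minus CTX, 4 were lower and 1 higher over 10 arrays, beside the same 10.7% and 11.8% of all probe sets, with a median of -0.33 beside 0.12 over all. *Vgf*, a granin-like precursor, was at -3.26 (adjusted p = 4.26e-05), *Pam*, which amidates peptides such as those of *Npy*, *Vip* and *Cck*, at -3.12 (adjusted p = 0.000159), and *Pcsk2*, a prohormone convertase, at -1.80 (adjusted p = 0.00407). In CA1 minus CA3 the only call was *Chgb*, chromogranin B, at -1.79 (adjusted p = 0.00744), where 3.82% of all probe sets were called lower. Of the GABA uptake and breakdown genes, 1 of the 3 on the GeneChip was tested. This was *Abat*, GABA transaminase, which limma called in none of the 7 contrasts over 10 arrays and which had an unadjusted p under 0.05 in 0 of them.

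The genes most like each member were sought by Pearson's r of centred log2 signal over the 12 arrays, among 7484 probe sets of other single genes. *Gad1* and *Slc32a1* were close to each other, with r = 0.907, which was the highest for *Gad1* and came after *Ptprm* (r = 0.920) for *Slc32a1*. *Cck* was nearest to a probe set annotated to *Loricrin* (r = 0.994) and to *Vxn* (r = 0.986), *Vip* to *Erf* (r = 0.960), *Crip2* (r = 0.958) and *Egr1* (r = 0.956), and *Npy* to *Man2a1* (r = 0.932). *Sst* was nearest to *Gstt3* (r = 0.922) and *Penk* to *Elovl1* (r = 0.942). No member other than *Gad1* and *Slc32a1* was among the 5 nearest to another. These values describe 12 arrays that share regions, rats and hybridizations, and the highest of so many correlations over few arrays are high by selection.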

How the data were processed

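The 12 arrays were Affymetrix RAE230A GeneChips, hybridized with RNA of laser-captured neurons after 2 cycles of amplification. The deposited values are signal intensities per probe set that the authors made with MAS5, as the submitters' processing notes name it, scaled to the same target in every array. The mean without the extreme signals lay between 500.1 and 500.2 in each array. The number of arrays, and not a read depth, limits the precision. Probe sets were named through the gene table of the array, which gave 12783 probe sets 1 symbol, 312 several and 2771 none. The 57 controls were left out.

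Log2 signals were centred on the array's median and fitted in limma 3.58.1 (R 4.3.3) to 1 mean per region plus a block for the rat, Benjamini-Hochberg adjustment ran over all 9000 probe sets tested, and the same filter served all 3 arrangements of the arrays. The replicate number was taken as the rat, since the methods describe the 4 populations as obtained from each animal. The mean correlation of deviations from the region means was -0.0662 between arrays of the same number as labelled, against 0.0238 for other numbers, 0.0958 against -0.0518 over 10 arrays and 0.0647 against -0.032 with the labels exchanged. The fits were tested on simulated data. The members and lists of genes were chosen with earlier results of these data known, and named from the lists are called genes by size of their difference. Alternatives were quantile normalization, no centring, 50 added or as a floor, other filters, an intensity trend, no replicate block, the methods' t-test and leaving out each array. For genes of the lists the floor of 50 was applied after the data were seen. Figures were drawn in matplotlib 3.10.9.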

Additional observations from a re-analysis of the deposited data

Results flagged for a closer look

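Of 20 searches for an outlying array, 2 gave one, and chance flags about 1 group in 20. *Cck* in the RES arrays as labelled had its lowest array, CA3 replicate 3, set off from the next by 0.739 of the whole range on the log2 scale. *Tac1* in the RES arrays had its highest array, CTX replicate 1, set off by 0.656 of the range, at signals that were all below the array's median.

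The difference between the regions of a pair was itself compared between the pairs, as CA1 minus CA3 less CbG minus CTX. With the arrays as labelled limma called 1 of the 7 member probe sets, where 2.01% of all probe sets were called, and the value was 9.04 for *Vip* (SE 1.40, adjusted p = 0.021). Over 10 arrays 3 were called, where 13.3% of all were, and the value was 8.02 for *Cck* (SE 0.40, adjusted p = 2.2e-05), 4.35 for *Npy* (SE 0.87, adjusted p = 0.0121) and 9.83 for *Vip* (SE 0.78, adjusted p = 0.000161). With the labels exchanged 5 were called, where 22% of all were, with values of 7.96 for *Cck*, 4.53 for *Npy*, 9.04 for *Vip*, 1.27 for *Gad1* (adjusted p = 0.048) and 1.08 for *Slc32a1* (adjusted p = 0.0165).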

How the results depend on the processing

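With the arrays as labelled, the number of the 7 probe sets called depended on the settings. Adding 50 gave 1 in CA1 minus CA3, 1 in CbG minus CTX, 2 in CA3 minus CTX and 1 in CA1 minus CbG, and a floor of 50 gave 1, 1, 1 and 1 in these contrasts. Quantile normalization gave 1 in CbG minus CTX and 2 in CA3 minus CTX, no centring 3 in CA3 minus CTX, no filter 0 in CA1 minus CTX and an intensity trend 1 in CA1 minus CbG. The fit with no replicate block gave 1 in CbG minus CTX, 2 in CA3 minus CTX and 1 in CA1 minus CbG. Exchanging the labels gave 4 in VUL minus RES, 2 in CA1 minus CA3, 4 in CbG minus CTX, 3 in CA1 minus CTX, 6 in CA3 minus CTX, 4 in CA1 minus CbG and 4 in CA3 minus CbG. Over 10 arrays, the filter at 8 of 12 arrays, which removes *Vip*, gave 1 in CA1 minus CA3. No filter gave 1 in VUL minus RES, 0 in CA1 minus CA3, 2 in CbG minus CTX and 1 in CA3 minus CTX, with more probe sets tested. The methods' t-test on the 4 complete pairs gave 0 in VUL minus RES, both unadjusted and after Benjamini-Hochberg. Over 10 arrays no replicate block changed no count by more than 1.5 times.

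Leaving out each array gave, as labelled, 0 to 1 calls in CA1 minus CA3 and in CA1 minus CTX, 0 to 2 in CbG minus CTX and in CA3 minus CTX, 0 to 3 in CA1 minus CbG and 0 to 0 in VUL minus RES and in CA3 minus CbG. The call of *Sst* in CA1 minus CTX was lost without any 1 of the 6 arrays of these regions. Over 10 arrays the ranges were 1 to 4 in VUL minus RES, 2 to 2 in CA1 minus CA3, 3 to 4 in CbG minus CTX, 2 to 3 in CA1 minus CTX, 2 to 6 in CA3 minus CTX, 4 to 4 in CA1 minus CbG and 3 to 4 in CA3 minus CbG. *Cck*, *Vip* and *Npy* kept their calls in CbG minus CTX and in CA1 minus CbG, as did *Vip* in CA1 minus CA3, without any 1 array. The filter was not set anew in these fits. No called difference of the 7 probe sets changed sign under any alternative run. Of the listed genes, *Grp* in CA1 minus CbG, at -2.64, was 0.12 and no longer called with signals under 50 set to 50. The causes of these changes were not tested.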
